A study of Mus musculus with 4 samples.

Results

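The genes described here encode the nuclear subunits of the mitochondrial respiratory chain and of ATP synthase, measured on arrays of mouse back skin. They were taken by name alone: every gene with a probe set whose single annotated symbol begins with Ndufa, Ndufb, Ndufc, Ndufs, Ndufv, Sdh, Uqcr, Cox4, Cox5, Cox6, Cox7, Cox8 or Atp5, read from its brightest probe set by the mean of all 4 arrays. This gave 94 genes with 185 probe sets, of 18194 genes and 45101 probe sets in all. By name they comprised 36 genes of complex I, 4 of complex II, 8 of complex III, 14 of complex IV, 17 of ATP synthase, 3 muscle isoforms of complex IV (Cox6a2, Cox7a1 and Cox8b) that were kept apart, and 12 Ndufaf and Sdhaf assembly factors, which are not subunits of the finished complexes. A filter on dim probe sets left 92 of them, Ndufb4 and Cox7b2 being below it.

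The study compared back skin of wild type mice, given as controls, with that of K5-IKKbeta transgenic mice. In the transgenic mice the regulatory elements of keratin K5, a keratin of basal epidermal cells, drive the kinase IKKbeta, an activator of NF-kB. Every mouse was a 32-day-old male of the strain C57BL6 X DBA2. Each genotype had 2 arrays, and each array carried the RNA of a pool of 3 mice, so the spread between arrays is a spread between pools. Values are log2 units as deposited, and a difference of 1 is a doubling.

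The respiratory chain passes electrons from NADH (complex I) and succinate (complex II) through ubiquinone to complex III, then through cytochrome c to complex IV, which reduces oxygen. The proton gradient built on the way drives ATP synthase. Some subunits of complex IV exist as alternative isoforms: in heart and skeletal muscle Cox6a2, Cox7a1 and Cox8b take the place of the widely expressed Cox6a1, Cox7a2 and Cox8a, and back skin of the mouse includes a thin sheet of skeletal muscle.

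The labels were checked on Ikbkb, the mouse gene of IKKbeta. Its probe set with the largest difference read 6.50 and 6.54 in the wild type pools and 8.77 and 8.74 in the K5-IKKbeta pools, while its brightest one differed by 0.50 and did not pass without wild type pool 1 (adjusted p = 0.15) or pool 2 (0.055). The other Ikbkb probe sets differed by 0.47, by -0.15 and, in one below the filter, by 0.14. The skin markers Krt5 and Krt14 were bright on every array, between 13.00 and 13.81. Of 13074 genes tested, 33.9% passed the threshold, an adjusted p under 0.05 from limma with Benjamini-Hochberg adjustment over all of them. The higher ones in K5-IKKbeta skin made up 23.4% and the lower ones 10.6%. In bulk tissue, fewer cells of a type and less RNA per cell cannot be told apart, and 11 of 11 genes of hair matrix and shaft were lower here, by a median of 58.9-fold.

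Of the 92 tested respiratory chain genes, 20 were higher in K5-IKKbeta skin and 0 were lower, while 72 did not pass. The share that was higher, 21.7%, was near the 23.4% of all genes. Among the 77 tested subunits other than muscle isoforms, 17 were higher, or 22.1%. The share that was lower, 0%, stood beside 10.6% of all genes, and no test of this difference was made. The median difference was 0.20, a fold of 1.15, against 0.09 over all genes tested. The shift was small but ran through most of the list: 78 differences were positive and 14 negative, and 67 were above the median of all genes. Over all 13074 genes tested, 7967 differences were positive and 5099 negative. In 61 genes both K5-IKKbeta pools lay above both wild type pools and in 8 both lay below, or 69 of 92 without overlap, against 69.5% of all genes in either direction and 45.2% in the higher one. At an unadjusted p under 0.05 there were 37 genes, 40.2% against 44.2% of all genes. A difference of at least 1.5-fold was seen in 4, 4.35% against 21% of all genes: Cox6a2, Cox8b, Cox7a1 and Sdhd.

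The count depended on the arrays and on the processing. Without wild type pool 1 or without wild type pool 2, 3 genes stayed higher (Cox6a2, Cox8b and Sdhd), which is 3.26% of the 92 against 12.5% and 12.6% of all genes. Without K5-IKKbeta pool 1 the median difference was 0.19, against 0.09 over all genes. The wild type pools themselves were not level: pool 2 was above pool 1 in 73 of the 92 genes, by a median of 0.07, while K5-IKKbeta pool 2 was above pool 1 in 47. When hair keratin genes were removed and the arrays quantile-normalized again, 8 genes were higher, 8.7% against 19.2% of all genes. The median difference was then 0.08, against 0.01 over all genes, and 61 of the 92 differences were positive. The share stood on either side of that of all genes: under limma's trend and robust settings 32 genes were higher, 34.8% against 24.6%.

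**Figure D1:**
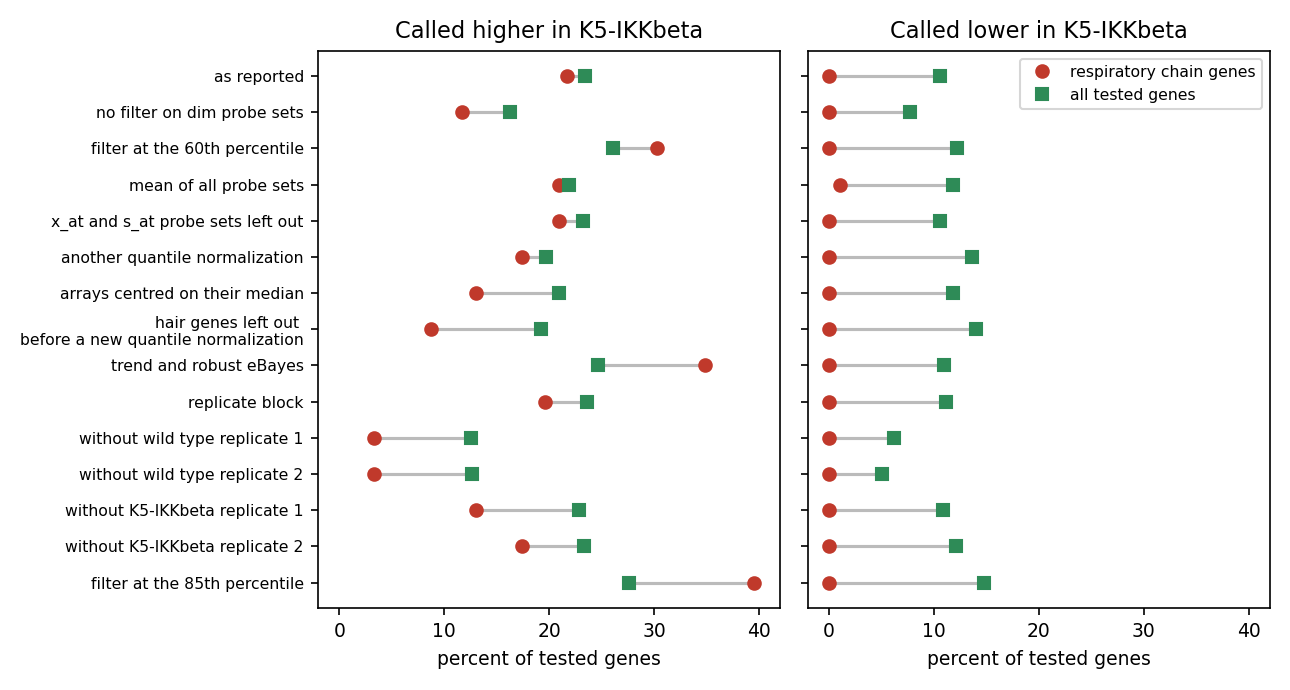
Percent of tested genes higher (left panel) and lower (right panel) in K5-IKKbeta skin at a limma adjusted p under 0.05, for the respiratory chain genes (red) and all genes tested (green), in the analysis as reported and under each alternative. The respiratory chain share that is higher is 21.7% against 23.4% as reported and 3.26% without either wild type pool, and the share that is lower is 0% except for 1.10% with the mean of all probe sets.

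**Figure D2:**
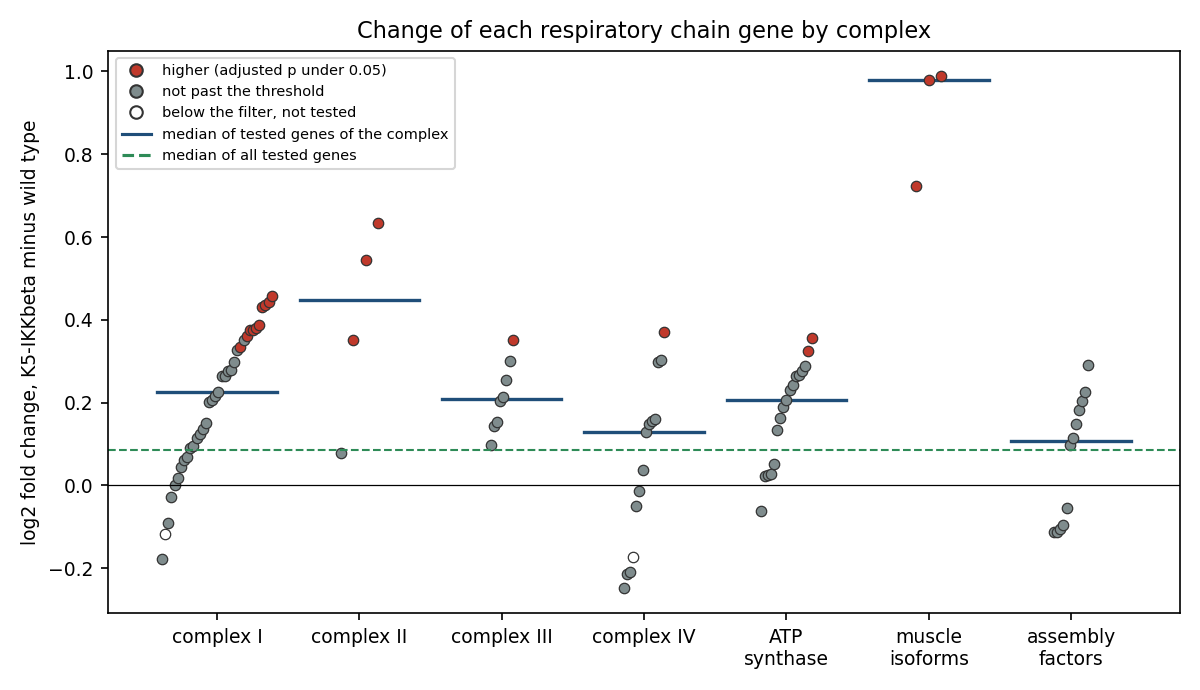
Log2 difference between K5-IKKbeta and wild type skin for each gene (points: red past the threshold, grey short of it, white below the filter), by complex, with the median of the tested genes of each class (bars) and that of all genes tested (dashed line). The 3 muscle isoforms lie between 0.72 and 0.99 and the other tested subunits between -0.25 and 0.63.

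The largest differences belonged to the muscle isoforms of complex IV. Cox6a2, the heart and muscle form of subunit 6A, read 9.56 and 9.49 in wild type and 10.72 and 10.30 in K5-IKKbeta skin, a difference of 0.99 (SE 0.15, 1.98-fold, limma adjusted p = 0.0049). Cox8b, the muscle form of subunit 8, read 9.25 and 9.20 against 10.36 and 10.06, a difference of 0.98 (SE 0.13, 1.97-fold, limma adjusted p = 0.0024). Cox7a1, the muscle form of subunit 7A, read 8.16 and 8.19 against 9.06 and 8.73, a difference of 0.72 (SE 0.13, 1.65-fold, limma adjusted p = 0.0088). In all 3 genes the groups did not overlap, the wild type pools lay within 0.07 of each other, and K5-IKKbeta pool 2 was the lower of its group. Cox6a2 and Cox8b passed in all 13 alternative analyses. Cox7a1 passed in 11 of them, its adjusted p being 0.059 without wild type pool 1 and 0.055 without wild type pool 2.

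Their widely expressed partners did not pass the threshold. Cox6a1 read 13.39 and 13.46 in wild type and 13.44 and 13.49 in K5-IKKbeta skin, a difference of 0.04 (SE 0.09, limma adjusted p = 0.79). Cox7a2 read 12.84 and 12.85 against 12.83 and 12.83, a difference of -0.01 (SE 0.09, limma adjusted p = 0.92). Cox8a read 11.95 and 12.12 against 12.22 and 12.17, a difference of 0.16 (SE 0.10, limma adjusted p = 0.29). The pools of these genes lay close together, with some overlap in Cox6a1. The difference of each muscle isoform exceeded that of its partner by 0.95 for subunit 6A, 0.74 for subunit 7A and 0.82 for subunit 8. The 4 arrays did not overlap in any of these within-array ratios, and the exact two-sided permutation p was 0.333 for each, the smallest that 2 against 2 arrays allow.

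**Figure D3:**
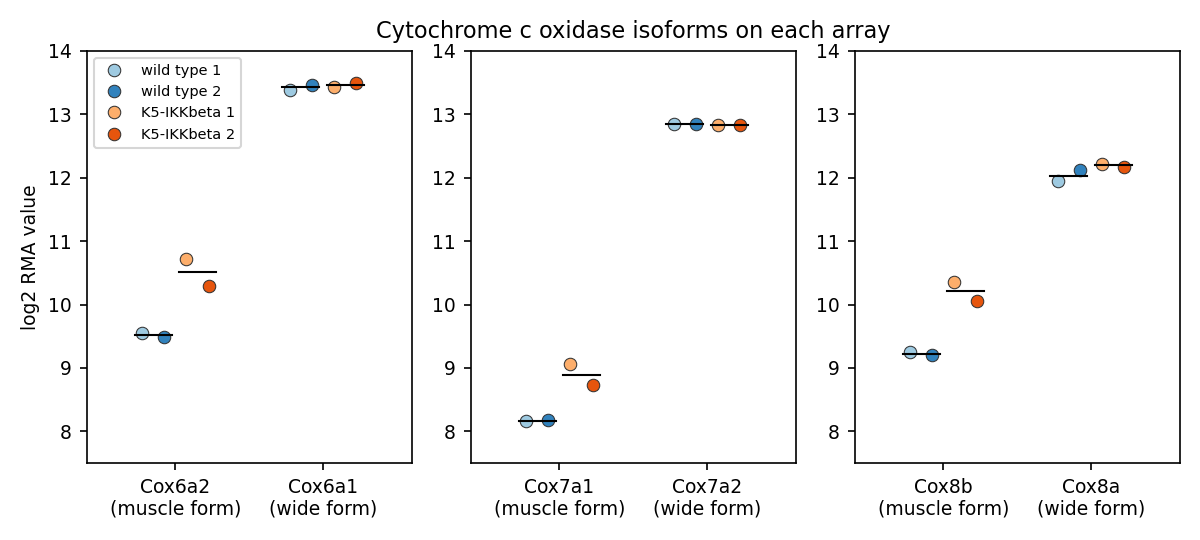
Deposited log2 value on each array (points) and mean of each genotype (bars) for the muscle isoforms Cox6a2, Cox7a1 and Cox8b and their partners Cox6a1, Cox7a2 and Cox8a. Each muscle isoform is higher in both K5-IKKbeta pools than in both wild type pools, and the partners differ by 0.16 or less between genotypes; levels of different probe sets are not comparable.

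The promoters of the isoform pairs are shown because the members of a pair share a role in the enzyme and differed in these arrays. No window was found for Cox6a2, so Cox6a1 stands without its muscle form. Each line gives the 250 bases before the RefSeq start of transcription, from 5′ to 3′ on the gene's own strand in GRCm38.p6. Capitals mark a match, on either strand, to 1 of 5 motifs: the core GCGCATGC bound by NRF-1, a known activator of respiratory chain genes; CCGGAAGT for ETS factors; the E-box CAGCTG bound by muscle regulatory factors; CTANNNNTAG for MEF2; and TATAAA. The windows lie on the mouse genome at chr7:140900447-140900696 (minus strand, Cox8b), chr19:7217617-7217866 (minus, Cox8a), chr7:30183921-30184170 (plus, Cox7a1), chr9:79759854-79760103 (minus, Cox7a2) and chr5:115348959-115349208 (minus, Cox6a1).
Cox8b: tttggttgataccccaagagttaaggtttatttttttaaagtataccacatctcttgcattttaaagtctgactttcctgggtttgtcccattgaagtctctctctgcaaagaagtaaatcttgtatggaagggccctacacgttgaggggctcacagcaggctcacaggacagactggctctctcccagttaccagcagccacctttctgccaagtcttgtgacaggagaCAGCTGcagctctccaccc
Cox8a: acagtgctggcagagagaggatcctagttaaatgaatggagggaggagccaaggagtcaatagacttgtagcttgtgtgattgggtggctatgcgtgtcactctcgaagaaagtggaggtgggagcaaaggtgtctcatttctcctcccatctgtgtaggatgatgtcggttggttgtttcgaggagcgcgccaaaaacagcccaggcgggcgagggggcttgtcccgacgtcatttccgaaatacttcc
Cox7a1: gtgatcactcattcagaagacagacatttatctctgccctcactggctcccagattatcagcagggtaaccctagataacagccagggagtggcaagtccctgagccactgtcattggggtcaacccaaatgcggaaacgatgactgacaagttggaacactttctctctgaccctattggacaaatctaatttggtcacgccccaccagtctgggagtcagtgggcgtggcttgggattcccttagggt
Cox7a2: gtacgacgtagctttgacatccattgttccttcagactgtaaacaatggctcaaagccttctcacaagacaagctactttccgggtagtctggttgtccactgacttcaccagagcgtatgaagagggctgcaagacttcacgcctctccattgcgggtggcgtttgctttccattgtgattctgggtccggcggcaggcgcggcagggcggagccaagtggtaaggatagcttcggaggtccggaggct
Cox6a1: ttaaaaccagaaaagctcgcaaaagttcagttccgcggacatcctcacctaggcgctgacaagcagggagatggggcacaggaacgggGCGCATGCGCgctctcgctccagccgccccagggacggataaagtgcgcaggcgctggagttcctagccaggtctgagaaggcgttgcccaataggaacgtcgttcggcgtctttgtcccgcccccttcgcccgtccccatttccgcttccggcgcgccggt

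The Cox8b window held 1 E-box near its 3′ end, and the Cox6a1 window held 2 overlapping NRF-1 cores, 1 on each strand. The windows of Cox8a, Cox7a1 and Cox7a2 held none of the 5 motifs. The G and C content was 47.2% for Cox8b and 51.2% for Cox7a1, and 52.8%, 54.8% and 62.8% for Cox8a, Cox7a2 and Cox6a1. A window was found for 78 of the 94 genes. The NRF-1 core occurred in 8 of these, 10.3%, against 2.56% of 27025 genes with a window. Among the 65 subunits other than muscle isoforms it occurred in 7, 10.8%. The 8 genes with the core were Ndufa6, Ndufa8, Sdhb, Cox6a1, Atp5g2, Atp5k, Atp5l and Ndufaf4. None of them passed the threshold on the arrays. The E-box occurred in 7.69% of the 78 and 14.7% of all genes, the ETS motif in 3.85% and 3.23%, the MEF2 motif in 1.28% and 3.70%, and TATAAA in 8.97% and 14.3%. The motifs were picked after the array values were seen, and a match is a string of letters, not a measured site.

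Markers of skeletal muscle moved with the muscle isoforms. Of 24 listed marker genes, all above the filter, 22 were higher and 0 lower in K5-IKKbeta skin. That is 91.7% and 0%, against 23.4% and 10.6% of all genes tested. The median was 0.93 and the range from 0.51 to 1.27. The exceptions to the threshold were Myh4, a fast myosin heavy chain (0.91, limma adjusted p = 0.072), and Mb, myoglobin (0.51, limma adjusted p = 0.11). The summed level of the list, on a log2 scale, was 16.41 and 16.37 in the wild type pools and 17.36 and 17.18 in the K5-IKKbeta pools. K5-IKKbeta pool 2 was below pool 1 in 19 of the 24 markers and in all 3 muscle isoforms. Measured from each gene's wild type mean, the median of the markers was 1.07 in K5-IKKbeta pool 1 and 0.84 in pool 2, that of the muscle isoforms 1.13 and 0.78, and that of the partners 0.01 and 0.06. The part of muscle content in the isoform differences was not tested.

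**Figure D4:**
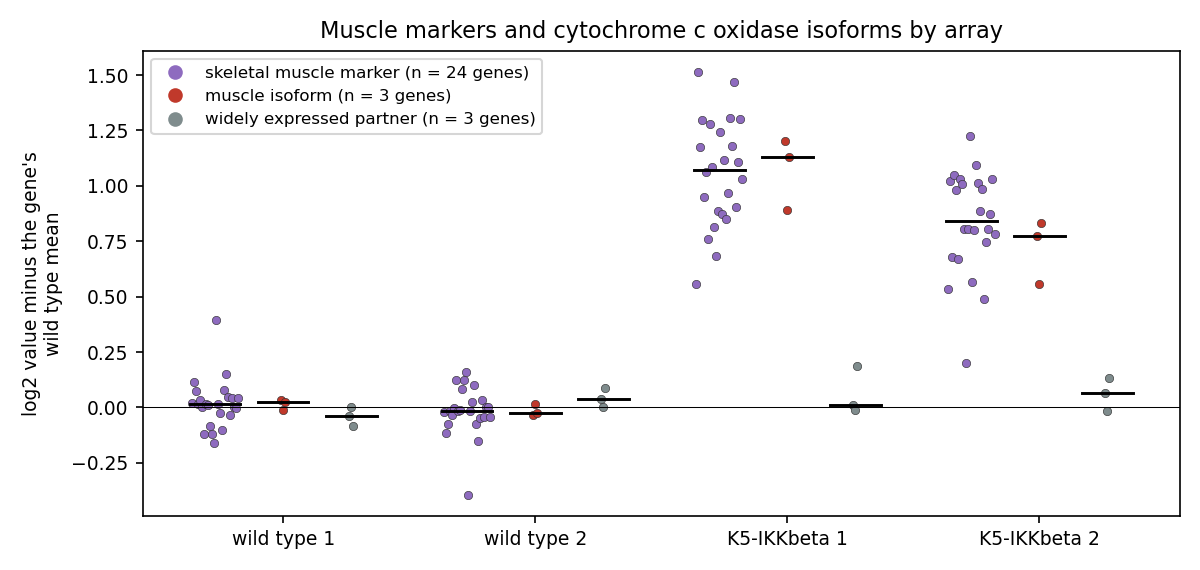
Log2 value of each gene minus its own wild type mean (points) on the 4 arrays, for 24 skeletal muscle markers, the 3 muscle isoforms and their 3 partners, with the median of each set (bars). In K5-IKKbeta pools 1 and 2 the medians of markers and muscle isoforms are 1.07 and 1.13, then 0.84 and 0.78, while the partners stay at 0.01 and 0.06.

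Cox7a1 and Cox8b are also known from brown fat, so its markers were read too. Of 9 brown adipocyte genes on the array, 7 were above the filter and 5 were higher, or 71.4% against 23.4% of all genes tested. The median was 0.96, and the summed level was 11.77 and 11.74 in wild type and 13.27 and 13.30 in K5-IKKbeta skin. Its defining marker Ucp1 was below the filter, at 5.53 and 5.16 in wild type and 5.53 and 6.31 in K5-IKKbeta skin. Of 9 white adipocyte markers, 5 were higher (55.6%), with a summed level of 14.94 and 14.85 against 15.16 and 15.29. Of the markers of slow and cardiac muscle, 3 of 7 were higher (42.9%) and 1 lower (14.3%, against 10.6% of all genes). The slow myosin gene Myh7 was below the filter. The brown adipocyte list was Ucp1, Cidea, Dio2, Prdm16, Cpt1b, Zic1, Kcnk3, Otop1, Ppara and Elovl3. Markers of skeletal muscle (22 of 24) and of sebocytes (7 of 8) were higher on the same arrays. Whether the listed genes read brown fat or these other tissues was not tested. The part of fat in the isoform differences was not tested either.

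Some other enzymes with a muscle isoform gave a like contrast in pairs that were picked after their values were seen. Not all such genes moved alike: Aldoa, the aldolase form of muscle, differed by 0.19 (SE 0.13, limma adjusted p = 0.30). The carrier that exchanges ADP and ATP differed by 0.69 in its heart and muscle form Slc25a4 and by -0.10 in Slc25a5. Mitochondrial creatine kinase differed by 0.90 in the sarcomeric form Ckmt2 and by 0.00 in Ckmt1. Phosphoglycerate mutase differed by 0.93 in the muscle form Pgam2 and by -0.03 in Pgam1, and phosphofructokinase by 0.81 in Pfkm and 0.28 in Pfkl. Ckmt2 and Pgam2 are themselves on the muscle marker list.

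Complex I, which oxidizes NADH, had 10 of 35 genes tested under its name higher (28.6%, against 23.4% of all genes) and 0 lower. The median was 0.23 and the range from -0.18 to 0.46. Ndufa4 and Ndufa4l2, described below, are in this count by name. Among the Ndufs and Ndufv genes, which include the subunits that carry flavin and iron-sulphur clusters, 3 of 9 were higher, or 33.3%. In these genes 9 of 9 differences were positive, beside 7967 of 13074 over all genes tested. Ndufs7, which holds the last iron-sulphur cluster before ubiquinone, read 10.80 and 10.89 in wild type and 11.41 and 11.20 in K5-IKKbeta skin, a difference of 0.46 (SE 0.11, limma adjusted p = 0.024). Ndufs3, a core subunit of the peripheral arm, read 11.02 and 11.20 against 11.53 and 11.56, a difference of 0.44 (SE 0.10, limma adjusted p = 0.022). Ndufv3, an accessory subunit at the NADH end, read 11.30 and 11.29 against 11.72 and 11.63, a difference of 0.38 (SE 0.09, limma adjusted p = 0.025). In these 3 genes the pools of the genotypes did not overlap, and each gap was wider than the spread within either genotype. Of other core subunits, 4 did not pass: Ndufs8 differed by 0.23, Ndufs1 by 0.22, Ndufv1, which binds the flavin, by 0.21, and Ndufv2 by 0.06, with limma adjusted p from 0.14 to 0.72.

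Among the accessory Ndufa, Ndufb and Ndufc genes, counted by name with Ndufa4 and Ndufa4l2, 7 of 26 were higher. That is 26.9% against 23.4% of all genes. Of the 26 differences 23 were positive, beside 7967 of 13074 over all genes tested. Ndufa2, a small subunit of the peripheral arm, read 10.97 and 11.02 in wild type and 11.49 and 11.39 in K5-IKKbeta skin, a difference of 0.44 (SE 0.10, limma adjusted p = 0.016). Ndufa5 differed by 0.39 and Ndufb10 by 0.38. The remaining genes past the threshold were Ndufa10 at 0.37, Ndufb3 at 0.36 and Ndufa1 at 0.33, beside Ndufa4. At the other end, Ndufs5 differed by 0.02 and Ndufa12, the most negative of the complex, by -0.18 (limma adjusted p = 0.30). Without wild type pool 1, 0 of the 10 complex I genes passed (adjusted p from 0.11 to 0.23), and without wild type pool 2 also 0 (from 0.051 to 0.19), while 5 passed without K5-IKKbeta pool 1 and 7 without pool 2.

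Ndufa4, named for complex I but since assigned to complex IV, read 11.68 and 11.95 in wild type and 12.27 and 12.22 in K5-IKKbeta skin, a difference of 0.43 (SE 0.12, limma adjusted p = 0.037). Its hypoxia-induced relative Ndufa4l2 read 9.30 and 9.19 against 9.13 and 9.37, a difference of 0.00 (SE 0.12, limma adjusted p = 0.996). The pools of Ndufa4l2 overlapped and those of Ndufa4 did not. The difference of Ndufa4l2 was 0.43 below that of Ndufa4, and the exact two-sided permutation p was 0.333, the smallest possible.

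Complex II, succinate dehydrogenase, is the only complex that is also an enzyme of the tricarboxylic acid cycle. It had 3 of 4 genes higher, 75% against 23.4% of all genes, with a median of 0.45. Sdhd, a membrane anchor that helps bind ubiquinone, read 10.59 and 10.65 in wild type and 11.26 and 11.25 in K5-IKKbeta skin, a difference of 0.63 (SE 0.09, 1.55-fold, limma adjusted p = 0.0037). Sdhc, the other anchor, read 10.82 and 10.88 against 11.32 and 11.47, a difference of 0.54 (SE 0.10, 1.46-fold, limma adjusted p = 0.0094). Sdha, the flavoprotein that oxidizes succinate, read 11.15 and 11.21 against 11.62 and 11.44, a difference of 0.35 (SE 0.11, limma adjusted p = 0.048). These 3 genes had no overlap between genotypes, and Sdha lay just inside the threshold. Sdhb, the iron-sulphur subunit, read 11.45 and 11.52 against 11.46 and 11.67, a difference of 0.08 (SE 0.11, limma adjusted p = 0.64), with overlapping pools. Sdhd passed in all 13 alternative analyses, Sdhc in 11 and Sdha in 4. Sdhc did not pass without wild type pool 1 (adjusted p = 0.075) or pool 2 (0.059), and Sdha did not without either of these or without K5-IKKbeta pool 1 (0.23, 0.16 and 0.14). A second probe set of Sdhc differed by 0.12 and one of Sdhd by 0.38.

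Complex III, the cytochrome bc1 complex, had 1 of 8 genes higher, 12.5% against 23.4% of all genes, with a median of 0.21. In all 8 both K5-IKKbeta pools lay above both wild type pools, a state shared by 45.2% of all genes tested. Uqcrc1, a core protein, read 11.72 and 11.81 in wild type and 12.16 and 12.07 in K5-IKKbeta skin, a difference of 0.35 (SE 0.10, limma adjusted p = 0.038). Uqcrfs1, the Rieske iron-sulphur protein, read 11.34 and 11.40 against 11.72 and 11.63, a difference of 0.30 (SE 0.10, limma adjusted p = 0.057). As deposited, the 8 differences were small and all positive, from 0.10 in Uqcrb to 0.35 in Uqcrc1. With hair keratin genes removed and the arrays normalized again, 7 of the 8 were positive and 0 passed. The second core protein, Uqcrc2, differed by 0.15 and the small subunit Uqcr10 by 0.14. Uqcrc1 did not pass without wild type pool 1 (adjusted p = 0.22), wild type pool 2 (0.13) or K5-IKKbeta pool 1 (0.095).

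Complex IV, cytochrome c oxidase, had 1 of 13 genes higher apart from the muscle isoforms and Ndufa4, 7.69% against 23.4% of all genes. Its median difference was 0.13 as deposited and -0.0034 once hair keratin genes were removed and the arrays normalized again. It was 0.074 without wild type pool 1, 0.076 without wild type pool 2, 0.063 without K5-IKKbeta pool 1, and 0.038 where each gene's probe sets were averaged. Cox4i1, the widely expressed form of subunit 4, read 12.70 and 12.68 in wild type and 13.11 and 13.01 in K5-IKKbeta skin, a difference of 0.37 (SE 0.10, limma adjusted p = 0.029). Cox4i2, the form known from lung and from low oxygen, read 6.69 and 6.69 against 6.45 and 6.52, a difference of -0.21 (SE 0.09, limma adjusted p = 0.14). The groups did not overlap in either gene, and Cox4i2 was close to the limit for dim probe sets, 6.33. The difference of Cox4i2 was 0.58 below that of Cox4i1, again with an exact permutation p of 0.333. Cox4i1 did not pass without wild type pool 1 (adjusted p = 0.14), wild type pool 2 (0.15) or K5-IKKbeta pool 1 (0.076).

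Over all 13 tested genes of complex IV, differences lay on both sides of 0, with 8 positive and 5 negative. Over all genes tested, 7967 were positive and 5099 negative. Cox6c, a small membrane subunit, differed by 0.30 (limma adjusted p = 0.055), and Cox6b2, the testis form of subunit 6B, by 0.30 (adjusted p = 0.050, short of the threshold). Cox5b, which binds zinc, differed by 0.15. Cox5a read 12.59 and 12.65 in wild type and 12.29 and 12.53 in K5-IKKbeta skin, a difference of -0.21 (SE 0.12, limma adjusted p = 0.21). Cox8c, the testis form of subunit 8, had the most negative difference of all tested members, -0.25 (SE 0.13, limma adjusted p = 0.19). No gene of the complex was lower past the threshold, though Cox8c was when all probe sets of a gene were averaged.

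ATP synthase had 2 of 17 genes higher, 11.8% against 23.4% of all genes. Of its differences, 16 of 17 were positive, beside 7967 of 13074 over all genes tested, with a median of 0.21. Atp5g1, one of the genes of the rotating c ring, read 11.06 and 11.20 in wild type and 11.45 and 11.52 in K5-IKKbeta skin, a difference of 0.36 (SE 0.10, limma adjusted p = 0.041). Atp5c1, the central stalk subunit gamma, read 12.05 and 12.07 against 12.40 and 12.37, a difference of 0.32 (SE 0.09, limma adjusted p = 0.039). Both had separate pools in each genotype, and both lay near the threshold. The catalytic core did not pass: Atp5a1, subunit alpha, differed by 0.26 (limma adjusted p = 0.080) and Atp5b, the catalytic subunit beta, by 0.16 (adjusted p = 0.24). Atp5o, in the stalk that holds the core still, differed by 0.24 and Atp5d, subunit delta of the central stalk, by 0.03. The smallest differences were those of Atp5md and Atp5e, both 0.02. Neither gene passed without wild type pool 1 (adjusted p from 0.20 to 0.24), wild type pool 2 (from 0.10 to 0.17) or K5-IKKbeta pool 2 (from 0.057 to 0.087), and 1 passed without K5-IKKbeta pool 1.

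The 12 assembly factors that share the name stems had 0 genes past the threshold, against 33.9% of all genes tested. Their median was 0.11 and their range from -0.11 to 0.29. At an unadjusted p under 0.05 there was 1, or 8.33% against 44.2% of all genes. The median moved with the arrays used: it was 0.032 without wild type pool 1, 0.17 without wild type pool 2, 0.13 without K5-IKKbeta pool 1 and 0.042 without K5-IKKbeta pool 2.

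Different probe sets of a gene did not always give the same sign. Of 50 members with 2 or more probe sets above the filter, 38 had all of 1 sign. Among the 20 genes that passed, 8 had more than 1 such probe set and in all 8 every one was positive. A second probe set of Cox6a2 differed by 0.95. The names of 19 brightest probe sets end in x_at or s_at, which marks probes that may also bind other transcripts; 2 of these belong to genes that passed, Ndufa2 and Atp5c1.

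Genes that serve or feed the chain were read from lists chosen by name. The wider list of assembly factors, which holds the 12 above, had 8 of 41 genes higher and 1 lower, with a median of 0.15. That is 19.5% higher and 2.44% lower, against 23.4% and 10.6% of all genes tested. Acad9, an assembly factor of complex I that is also an acyl-CoA dehydrogenase, differed by 1.02, Cox15, which makes heme a, by 0.57, and Oxa1l, which inserts inner membrane proteins, by 0.45. Atpaf1, a chaperone of ATP synthase, was the lower one, at -0.64. Without wild type pool 1 or 2, Atpaf1 (adjusted p = 0.11 and 0.10), Cox15 (0.11 and 0.066) and Oxa1l (0.15 and 0.066) did not pass. Of mobile carriers and enzymes of ubiquinone synthesis, 5 of 13 were higher, 38.5% against 23.4% of all genes, and 0 were lower. Coq9 differed by 0.84 and Coq6 by 0.79, while Cycs, somatic cytochrome c, differed by -0.03.

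Fuel pathways had larger shares of higher genes than the chain itself. Over all genes tested, 23.4% were higher and 10.6% lower, with a median of 0.09. Of genes of the tricarboxylic acid cycle and pyruvate dehydrogenase, 9 of 18 were higher (50%) and 0 lower, with a median of 0.35. Pcx, pyruvate carboxylase, differed by 1.51, Idh2, the mitochondrial NADP-dependent isocitrate dehydrogenase, by 0.88, and Dlat, a subunit of pyruvate dehydrogenase, by 0.71. Of mitochondrial fatty acid oxidation, 7 of 17 were higher (41.2%) and 1 lower (5.88%), with a median of 0.29. Decr1, an auxiliary enzyme for unsaturated fatty acids, differed by 1.11 and Acadm, the medium-chain dehydrogenase, by 0.81, while Cpt1a, the liver form of the entry enzyme, was lower, at -0.76. Without wild type pool 1, Cpt1a (adjusted p = 0.065) and Dlat (0.075) did not pass, nor did Dlat without wild type pool 2 (0.055). Glycolysis had 12 of 18 genes higher (66.7%) and 1 lower (5.56%), with a median of 0.40. Ldhb, a lactate dehydrogenase subunit, differed by 2.16, and Aldoc, an aldolase, was the lower one, at -0.75. Eno3 and Pgam2, at 0.95 and 0.93, are muscle markers as well. The shares were not tested against that of the chain or of all genes.

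Of carriers and energy transfer genes, 3 of 12 were higher, and these were the muscle genes Ckmt2 (0.90), Ckm (0.87) and Slc25a4 (0.69), the last with a limma adjusted p of 0.054 without wild type pool 1. Among regulators of mitochondrial genes 1 of 17 was higher, the coactivator Ppargc1b at 0.83, with a median of 0.07 for the list. Its relative Ppargc1a was below the filter. The share that was higher was 25% for the carriers and 5.88% for the regulators, against 23.4% of all genes tested. It was 11.8% for mitochondrial ribosomal proteins and 3.33% for import and inner membrane genes. Lower were 1.32% of the ribosomal proteins and 0% of the other lists, against 10.6% of all genes. Of 76 mitochondrial ribosomal protein genes, 9 were higher and 1, Mrps25 at -0.37, was lower, with a median of 0.10. Mrpl27 led these at 0.59, with an adjusted p of 0.067 without wild type pool 1. Of import and inner membrane genes, 1 of 30 was higher, the fusion protein Opa1 at 0.32, and it did not pass without any 1 of the 4 arrays.

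**Figure D5:**
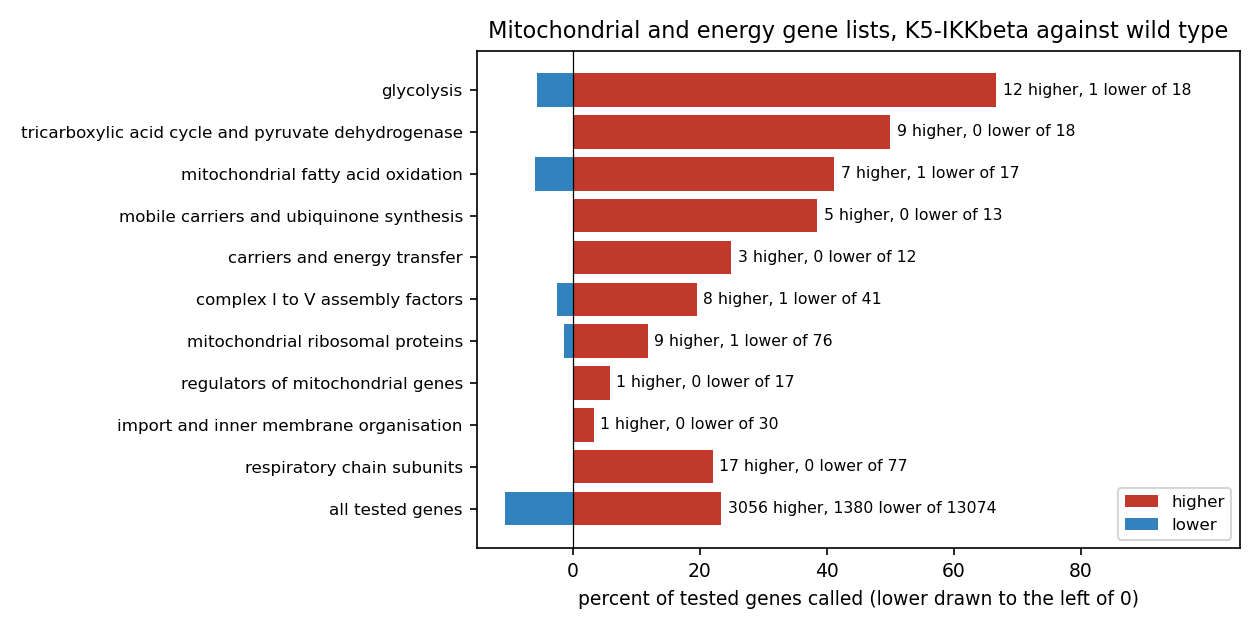
Percent of tested genes higher (to the right) and lower (to the left) in K5-IKKbeta skin for the 77 respiratory chain subunits other than muscle isoforms, each related pathway list and all genes tested. Glycolysis reaches 66.7% higher and 5.56% lower, the subunits 22.1% and 0%, and import and inner membrane genes 3.33% and 0%.

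Other cell type markers also differed between the same arrays, on which 23.4% of all genes tested were higher and 10.6% lower. Higher were 10 of 10 macrophage markers (median 1.07), 7 of 8 sebocyte markers (median 1.12), 4 of 7 T cell markers, 5 of 8 fibroblast markers and 4 of 6 endothelial markers. Of 12 epidermal keratinocyte markers 6 were higher and 3 lower, and 7 of 7 melanocyte markers were lower. The part of these cell types in the small differences of the respiratory chain genes was not tested.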

How the data were processed

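Gene expression in back skin was measured on 4 Affymetrix arrays, 2 per genotype, from 5 ug of total RNA per labelling, each array a pool of 3 mice. The deposited values are log2 signals that the authors made with RMA, per the submitters' processing notes. RMA corrects background, quantile-normalizes and summarizes probes, and so draws small differences together. The log base was read from their range, 2.65 to 14.67. Array software beyond RMA is not given in the sources used here.

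Probe sets were named from the platform annotation: 34958 had 1 symbol, 932 several (not used) and 9211 none. The brightest probe set stood for a gene. Genes under the 40th percentile of mean values, 6.33, were left out, leaving 13074 of 18194. A linear model with genotype as its single term and 2 residual degrees of freedom was fitted by limma (version 3.58.1, R 4.3.3) with default eBayes moderation. Two-sided p-values were adjusted by the Benjamini-Hochberg method across every tested gene, with a threshold of 0.05. The number of arrays limits the precision, and p-values measure the spread between pools. Replicate numbers do not pair the arrays.

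Members and lists were chosen with earlier results of these data known. Named genes are the isoform pairs, core subunits, up to 6 members per complex past the threshold with the largest and 2 with the smallest differences, and up to 4 per pathway list; others were named after their values were seen. Promoters came from RefSeq (GRCm38.p6) and were searched on both strands. The fit was tested on simulated data. Alternatives varied the filter, probe sets, normalization, eBayes settings, replicate block and arrays used.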

Additional observations from a re-analysis of the deposited data

How the results depend on the processing

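The count of 20 higher genes was 21.7% of members, against 23.4% of all genes. With no filter on dim probe sets it was 11 (11.7% against 16.3%), and with arrays centred on their median 12 (13% against 20.9%). With hair keratin genes removed and the arrays quantile-normalized again it was 8 (8.7% against 19.2%). With trend and robust eBayes it was 32 (34.8% against 24.6%). Leaving out each array in turn gave 3 to 16. A filter at the 85th percentile, chosen after seeing the data, gave 30 of 76, which is 39.5% against 27.6% of all genes. The lower count was 0 except for 1 with the mean of all probe sets (Cox8c). With the replicate block, 18 genes were higher, 17 of them among the 20; Ndufa4, Sdha and Uqcrc1, the only gene of complex III that had passed, no longer passed, and Ndufs4 did. The arrays share only a number, and same-numbered arrays deviated together with a correlation of 0.25 over all genes and 0.41 over the 92.

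The mean of all probe sets gave medians of 0.27 for complex II and 0.16 for ATP synthase. Another quantile normalization gave 0.16 for complex I, 0.39 for complex II and 0.16 for complex III, and median centring gave 0.19 for complex I and 0.17 for ATP synthase. With hair genes removed, the medians were 0.13 for complex I, 0.35 for complex II, 0.091 for complex III, -0.0034 for complex IV, which reversed, and 0.10 for ATP synthase. Leaving out arrays gave 0.17 to 0.28 for complex I and 0.78 to 1.13 for the muscle isoforms. The log2 fold change of Mrpl38 reversed from 0.39 to -0.00188 with the mean of all probe sets and to -0.13 without x_at and s_at probe sets, which read it from other probe sets. For the other changes the cause was not tested.

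Of all calls, 68.9% were higher as reported, 59.2% after another quantile normalization and 57.8% with hair genes removed. Named genes short of the threshold changed sign 36 times, in 11 genes, and 0 of these were past the threshold. With 2 pools a genotype, the number of arrays limits what small differences can show.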
